A study of Mus musculus with 86 samples.

Results

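SOX2 regions at the boundaries of protein-coding genes, with no CTCF peak on them, were examined in mouse embryonic stem cells. Overlapping peaks of both asynchronous SOX2 lists were merged, and a merged region was kept where each list had a peak in it. Members were the merged regions that had the start or the finish of a protein-coding gene within 1 kb and overlapped no peak of either asynchronous CTCF list. They numbered 4661 of 51672 reproducible SOX2 regions (9.02%), and 49.8% of the 9360 SOX2 regions at gene ends. The members lay at 4671 of 21887 protein-coding genes, and 572 genes had more than 1 member, so that some members share a gene.

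Chromatin immunoprecipitation with sequencing (ChIP-seq) peak lists of 8 libraries out of 86 in the series were used. The mitotic cells were arrested with 100 ng/ml nocodazole, a microtubule poison, for 6 h and collected by shake-off. The asynchronous cells were untreated. All were of strain 129S5/SvEvBrd and were grown in medium with serum and leukemia inhibitory factor (LIF) on gelatin. SOX2 and CTCF each had 2 mitotic and 2 asynchronous libraries. No label tells whether the replicates are separate cultures, so SDs measure only the spread between these libraries, which may be technical. The p-values depend only on whether a difference has the same sign in the 2 mitotic SOX2 libraries. A nocodazole arrest collects cells held at one stage of mitosis, and the labels give no measured purity of the mitotic cells.

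SOX2 is an HMG-box transcription factor that binds the minor groove of DNA and keeps embryonic stem cells pluripotent, often on composite sites shared with OCT4. CTCF is a zinc finger protein that marks insulators and chromatin loop anchors. In mitosis, chromosomes condense, transcription largely stops and many factors leave chromatin, and gene starts are among the sites where chromatin can stay accessible.

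The mitotic SOX2 lists held 1976 and 408 peaks in replicates 1 and 2, against 90266 and 63504 in the asynchronous SOX2 lists. The mitotic CTCF lists held 20142 and 15338 peaks, against 68328 and 67995 in the asynchronous CTCF lists. Read totals were not used here. The background coverage per 100 bp, solved from the deposited fold and −log10 p, was 2.62 and 1.64 in mitotic SOX2, against 2.48 and 1.61 in asynchronous SOX2, and 1.64 to 3.77 over the mitotic libraries of both factors. Mitotic replicate 2 was thus the shallower of the mitotic SOX2 libraries. As a check of the label, 7 to 16 SOX2 regions lay within 50 kb of each of Sox2, Pou5f1, Nanog, Klf4, Esrrb, Tfcp2l1, Zfp42 and Tbx3, genes of the pluripotency network.

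Promoter windows of 10 members are shown first, to set gene starts that carried a mitotic SOX2 peak beside gene starts that did not. They are the 6 strongest members called in both mitotic libraries whose window was crossed by both mitotic peaks, and the 4 strongest members called in neither that have a window. Each window runs from 250 bases before to 50 bases after the start of transcription, from RefSeq on GRCm38.p6, 5′ to 3′ on the strand of the gene. Capitals mark the SOX core ACAATG or its variant ACAAAG, the octamer ATGCAAAT bound by OCT4, each in either orientation. The 6 windows called in both are those of Vangl2 (chr1:172027246-172027545, minus strand), Gm46977 (chr6:134035263-134035562, minus strand), Plppr2 (chr9:21936760-21937059, plus strand), Mmp11 (chr10:75932453-75932752, minus strand), G3bp2 (chr5:92083549-92083848, minus strand) and Hoxb1 (chr11:96365508-96365807, plus strand). The 4 called in neither are those of Gm10461 (chr5:32615529-32615828, minus strand), Ebi3 (chr17:55952373-55952672, plus strand), Lrrn2 (chr1:132880105-132880404, plus strand) and Armcx1 (chrX:134717688-134717987, plus strand).
Vangl2: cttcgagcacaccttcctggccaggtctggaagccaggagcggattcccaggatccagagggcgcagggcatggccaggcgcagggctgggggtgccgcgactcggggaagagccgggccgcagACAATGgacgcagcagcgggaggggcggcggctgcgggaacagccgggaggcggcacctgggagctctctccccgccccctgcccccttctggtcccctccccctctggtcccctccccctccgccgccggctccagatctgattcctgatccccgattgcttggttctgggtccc
Gm46977: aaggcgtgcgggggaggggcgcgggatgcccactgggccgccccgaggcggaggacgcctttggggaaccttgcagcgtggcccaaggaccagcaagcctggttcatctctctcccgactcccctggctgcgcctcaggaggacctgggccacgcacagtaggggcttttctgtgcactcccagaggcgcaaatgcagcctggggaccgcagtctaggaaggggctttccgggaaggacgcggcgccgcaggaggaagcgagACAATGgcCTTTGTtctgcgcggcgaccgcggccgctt
Plppr2: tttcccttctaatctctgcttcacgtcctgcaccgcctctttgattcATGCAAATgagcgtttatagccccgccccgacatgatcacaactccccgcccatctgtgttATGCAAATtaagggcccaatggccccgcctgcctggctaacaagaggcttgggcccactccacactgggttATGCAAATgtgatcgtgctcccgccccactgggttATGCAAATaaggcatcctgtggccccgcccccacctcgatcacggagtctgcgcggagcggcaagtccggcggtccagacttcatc
Mmp11: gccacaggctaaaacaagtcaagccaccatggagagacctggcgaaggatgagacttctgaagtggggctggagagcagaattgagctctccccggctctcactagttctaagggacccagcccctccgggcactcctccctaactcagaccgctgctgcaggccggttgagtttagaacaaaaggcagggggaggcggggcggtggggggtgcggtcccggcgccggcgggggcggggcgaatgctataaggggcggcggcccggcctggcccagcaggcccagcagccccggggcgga
G3bp2: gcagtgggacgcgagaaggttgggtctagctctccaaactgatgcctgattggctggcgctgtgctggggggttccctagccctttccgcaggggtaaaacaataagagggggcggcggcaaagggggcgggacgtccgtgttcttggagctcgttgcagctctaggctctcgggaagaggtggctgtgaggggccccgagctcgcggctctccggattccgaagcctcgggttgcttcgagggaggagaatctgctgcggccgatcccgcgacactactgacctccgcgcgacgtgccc
Hoxb1: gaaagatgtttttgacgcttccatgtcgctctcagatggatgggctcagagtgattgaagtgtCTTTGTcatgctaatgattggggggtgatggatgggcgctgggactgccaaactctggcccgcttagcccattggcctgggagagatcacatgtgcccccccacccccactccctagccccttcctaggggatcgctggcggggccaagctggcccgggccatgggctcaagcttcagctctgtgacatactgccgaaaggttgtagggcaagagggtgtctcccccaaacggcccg
Gm10461: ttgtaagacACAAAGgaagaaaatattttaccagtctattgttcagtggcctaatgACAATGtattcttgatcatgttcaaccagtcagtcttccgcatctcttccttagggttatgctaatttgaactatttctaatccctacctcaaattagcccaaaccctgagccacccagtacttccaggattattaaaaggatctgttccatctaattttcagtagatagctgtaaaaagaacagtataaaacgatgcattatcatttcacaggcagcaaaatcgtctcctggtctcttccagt
Ebi3: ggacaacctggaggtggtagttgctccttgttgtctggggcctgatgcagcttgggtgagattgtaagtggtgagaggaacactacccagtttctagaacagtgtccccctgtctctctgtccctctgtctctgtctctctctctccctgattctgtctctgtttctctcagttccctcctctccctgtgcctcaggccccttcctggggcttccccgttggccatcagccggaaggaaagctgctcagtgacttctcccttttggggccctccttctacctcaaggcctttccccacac
Lrrn2: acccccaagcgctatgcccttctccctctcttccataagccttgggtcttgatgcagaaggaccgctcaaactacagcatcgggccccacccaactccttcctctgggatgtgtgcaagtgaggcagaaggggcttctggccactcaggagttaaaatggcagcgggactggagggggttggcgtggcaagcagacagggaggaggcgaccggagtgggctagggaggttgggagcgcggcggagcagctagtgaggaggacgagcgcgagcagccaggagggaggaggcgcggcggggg
Armcx1: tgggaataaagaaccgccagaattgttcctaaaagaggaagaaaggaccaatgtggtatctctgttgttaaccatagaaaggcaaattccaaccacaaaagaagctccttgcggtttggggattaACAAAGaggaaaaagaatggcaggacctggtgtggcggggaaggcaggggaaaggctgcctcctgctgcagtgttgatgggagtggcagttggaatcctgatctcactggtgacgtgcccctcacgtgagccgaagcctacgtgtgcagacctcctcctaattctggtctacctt

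The window of Vangl2, a core gene of planar cell polarity, was 71.3% GC and held a single SOX core. The window of Plppr2, a lipid phosphatase-related membrane protein, held 4 octamers and 4 GC boxes (GGGCGG in either orientation). Of 21263 promoter windows, 335 held 1 octamer, 16 held 2, 1 held 3, and that of Plppr2 was the single one with 4. The window of Mmp11, a metalloproteinase, held no SOX core and 4 GC boxes. In the window of Hoxb1, a homeobox factor of the hindbrain, the CTTTGT was followed after 1 base by atgctaat. This arrangement, a SOX core with its second letter on this strand open, 1 base of any kind and an octamer with any base after its ATGC, was searched for after the Hoxb1 window had been seen. It occurred on either strand in 3 of the 21263 windows, those of Hoxb1, Fam169a and Bcat1. The SOX2 regions at Hoxb1 and Fam169a were called in both mitotic libraries, and that at Bcat1 in neither. Of these 3, Hoxb1 was at a member. The region at Fam169a was at a gene end with CTCF, and that at Bcat1 had CTCF and was away from gene ends. The GC content of the 6 windows called in both was 57.7% to 71.3%, and that of the 4 called in neither was 38.0% at Gm10461, 50.3% at Armcx1, an X-linked armadillo repeat gene, 56.3% at Ebi3 and 64.0% at Lrrn2, so the groups overlapped. A GC box was in 5 of the 6 windows called in both, all but that of Hoxb1, and in none of the 4 called in neither. The groups were chosen by unlike rules, and most of the 4 windows lay off the asynchronous summit. That summit was 58 to 203 bp from the start of transcription in the 6. It was 1152 bp away at Gm10461, 1192 bp at Lrrn2, 456 bp at Ebi3 and 161 bp at Armcx1. Over all windows at members called in neither, 66.2% held a GC box. A SOX core or its variant was in 3 of the 6, those of Vangl2, Gm46977 and Hoxb1, and in 2 of the 4, those of Gm10461 and Armcx1. At Hoxb1 and Armcx1 it was the variant only.

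The first comparison asked how many of these gene-end regions still had a SOX2 peak in mitosis. Few did. A region counted as called in a library where a peak of that library's list overlapped it by 1 bp or more. Mitotic SOX2 replicate 1 called 256 of the 4661 members, 5.49% (95% Wilson interval 4.87% to 6.18%), where the share over all 51672 SOX2 regions was 3.37%. Mitotic SOX2 replicate 2 called 39 members, 0.837% (0.613% to 1.14%), where the share over all regions was 0.755%. The mean was 3.16% ± 3.29 (SD, n = 2 libraries), against 100% in both asynchronous libraries by construction. The SD exceeded the mean, so the share itself is known only to within the gap between the 2 libraries. Both libraries called 34 members, 0.729% (0.522% to 1.02%), beside 0.675% of all regions. Of the 39 members called in replicate 2, 87.2% were also called in replicate 1, while 13.3% of the 256 called in replicate 1 were called in replicate 2. A further 222 were called in replicate 1 alone and 5 in replicate 2 alone. Either library called 261 members, 5.60%, beside 3.45% of all regions, and the other 4400 members, 94.4%, were called in neither. Intervals cover counting error over regions only, and neighbouring regions are not independent. Without asynchronous SOX2 replicate 2 the members numbered 9280 and the mean share was 1.69%. Without asynchronous CTCF replicate 2 the members numbered 5447, and 53 of them were called in both mitotic libraries.

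Where the mitotic peaks lay on members, they were close to the asynchronous summit. The mitotic summit was a median of 62.5 bp from the summit of the strongest asynchronous peak in replicate 1 and 45 bp in replicate 2. It lay within 100 bp of it at 65.6% of the 256 members and at 74.4% of the 39. The mitotic peaks on members had median widths of 314 bp in replicate 1 and 219 bp in replicate 2, while the asynchronous regions they fell on had median widths of 1212 and 1401 bp. Those regions were merged over both asynchronous lists, so the widths are not like for like. Peaks on members made up 13.6% and 9.56% of the mitotic SOX2 lists, against 5.37% and 8.004% of the asynchronous SOX2 lists. By the rule, asynchronous peaks not shared by both lists could not lie on members, which lowers the asynchronous shares. Within its own list, a mitotic peak on a member was of middling rank, with a median fold percentile of 52.1 in replicate 1 and 40.6 in replicate 2. Fold enrichment and −log10 p are the authors' values for each peak, and they rank peaks within a list only.

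Members were then set against the classes of SOX2 region most like them, to separate position from CTCF. Members were called more often than SOX2 regions without CTCF elsewhere, and less often than gene-end regions with CTCF. In mitotic replicate 1, 5.49% of members were called, against 0.662% of 15397 regions inside genes without CTCF (0.546% to 0.803%). In replicate 2 it was 0.837% of members, against 0.195% of regions inside genes (0.137% to 0.278%). The difference was 4.83 and 0.642 percentage points, a mean of 2.74 ± 2.96 (SD, n = 2), which corresponds to ratios of 8.29 and 4.29. Regions outside genes without CTCF, 17520 in number, were called at 0.731% in replicate 1 and 0.188% in replicate 2, so that members were called 7.52 and 4.44 times as often. Gene-end regions with CTCF, the 4699 regions that share the members' position, were called at 15.7% (14.7% to 16.8%) and 2.98% (2.53% to 3.51%). The members minus these gave −10.3 and −2.14 percentage points, a mean of −6.20 ± 5.74 (SD, n = 2).

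Over all SOX2 regions that were not members, 3.16% and 0.747% were called, and members exceeded them by 2.34 and 0.0901 percentage points, a mean of 1.21 ± 1.59. Regions with CTCF away from gene ends were called about as often as members in replicate 1, 5.49% of members against 5.47%, and more often in replicate 2, 0.837% of members against 1.58%. Each of the first 4 differences had the same sign in 2 of 2 mitotic libraries, and a two-sided exact sign-flip permutation test over the 2 libraries gave p = 0.5, the smallest p it can give, so no difference can pass 0.05 in this design. The last had opposite signs and p = 1 in the same exact test.

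**Figure D1:**
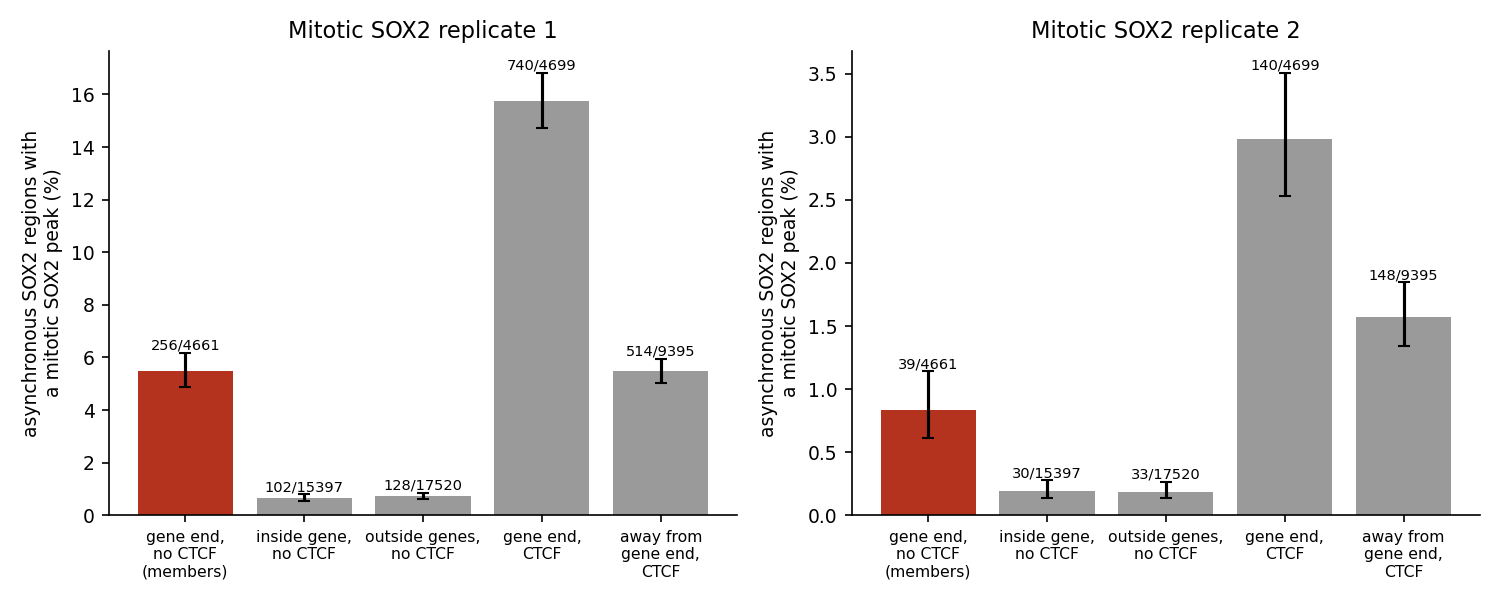
Share of asynchronous SOX2 regions with a mitotic SOX2 peak (y axis, %, separate scales) for members and the 4 other classes of region, in mitotic replicate 1 (left) and replicate 2 (right). Bars are shares, error bars are 95% Wilson intervals, and the numbers are called over all regions; members (5.49% and 0.837%) stand above both other classes without CTCF and below gene ends with CTCF in each library.

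Asynchronous binding strength differed between these classes, so it was followed beside the calls. To score strength, the highest fold in a region was turned into a percentile within each asynchronous SOX2 list, and the 2 percentiles were averaged. Members were weaker than SOX2 regions elsewhere. Their median strength was 48.0 (quartiles 29.6 and 69.9), against 62.1 for regions inside genes without CTCF, 65.5 for those outside genes without CTCF and 49.9 for gene ends with CTCF. The median width of members was 696 bp, against 595 bp inside genes without CTCF, 608 bp outside genes without CTCF and 930 bp at gene ends with CTCF. In replicate 1 the called share was higher in each stronger class of members. It was 0.972% of 617 members at a strength up to 20, 2.19% at 20 to 40, 3.33% at 40 to 60, 7.79% at 60 to 80, 14.2% at 80 to 90 and 18.1% of 271 members above 90. Among regions inside genes without CTCF, the strongest class reached 2.89%, and among gene ends with CTCF it reached 50.7%. In replicate 2, 6.64% of members above a strength of 90 were called, against 1.22% inside genes without CTCF and 21.8% at gene ends with CTCF. With regions inside genes weighted to the members' strength and width, in 10 classes of each, members were called at 5.50% against 0.729% in replicate 1 and at 0.838% against 0.163% in replicate 2. With gene ends with CTCF weighted likewise, it was 5.52% of members against 10.98%, and 0.841% against 1.91%.

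**Figure D2:**
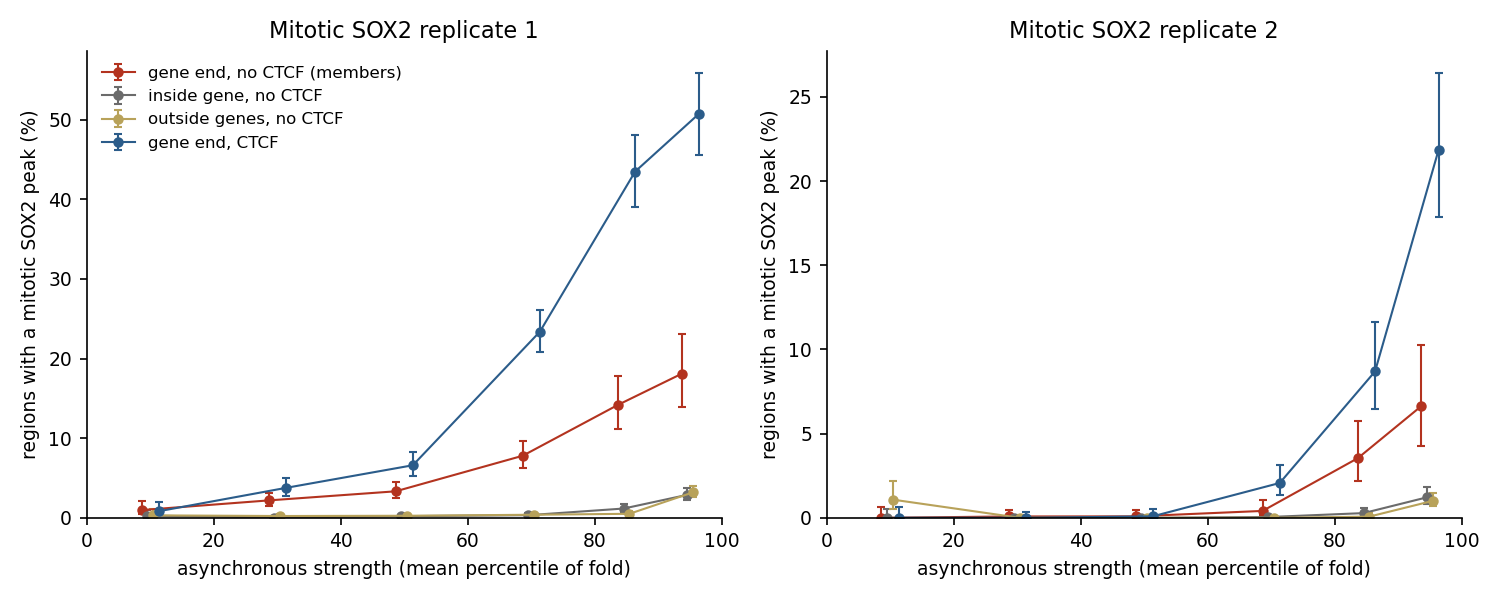
Share of regions with a mitotic SOX2 peak (y axis, %) against asynchronous strength (x axis, mean percentile of fold, 6 classes), for members and 3 other classes of region. Points are shares and bars are 95% Wilson intervals; members reach 18.1% in replicate 1 and 6.64% in replicate 2 in the strongest class, between gene ends with CTCF and both classes without CTCF.

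Members called in mitosis had higher median strength and width than the rest. The 34 members called in both libraries had a median strength of 90.2 and a median width of 1446 bp. The 222 called in replicate 1 only had a median strength of 72.9 and a width of 1169.5 bp (median), and the 4400 called in neither 46.5 and 675 bp. The weakest member called in both, at Tra2b, had a strength of 64.7. Of the 10 strongest members, 8 were called in neither mitotic library.

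**Figure D3:**
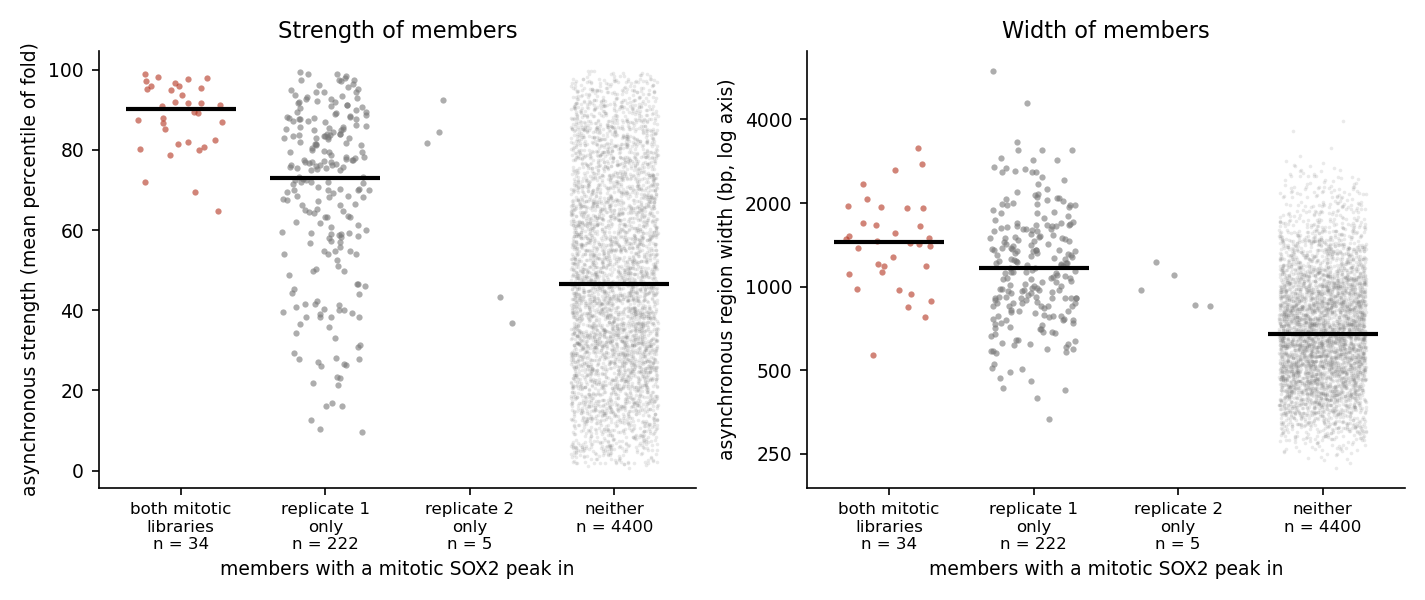
Asynchronous strength (left, mean percentile of fold) and width (right, bp, log axis) of each of the 4661 members, by the mitotic SOX2 libraries that called it. Each point is a member and the black lines are medians, 90.2 for the 34 called in both and 46.5 for the 4400 called in neither; no median is drawn for the 5 called in replicate 2 only.

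Among the strongest members, the top one lay at Il6st, which encodes gp130, the signalling receptor subunit shared by LIF and interleukin-6. It had asynchronous folds of 37.2 and 33.0 in replicates 1 and 2 (chr13:112461962-112463369) and no mitotic peak in either library. Next came Gm10461 with folds of 39.7 and 29.2, shown above, and Aspm, a spindle pole gene, whose finish carried folds of 29.1 and 35.5. Both were without a mitotic peak. The regions at Cidea, a lipid droplet gene, and at Rundc3b, a RUN domain gene, were the 2 of the strongest 10 with a mitotic call. Cidea had asynchronous folds of 28.6 and 31.5 and was called in mitotic replicate 1 only. Rundc3b had the highest fold of these 10 in asynchronous replicate 1, 43.7, with 21.4 in replicate 2, and was called in both mitotic libraries (mitotic folds of 3.56 and 3.92). The remaining 5, at Sgip1, Elp6, Ebi3, Lrrn2 and Armcx1, had asynchronous folds of 22.2 to 30.5 and were not called in mitosis. Elp6 is a subunit of the Elongator complex and Ebi3 a subunit of the cytokine interleukin-27. Krtap31-2, a hair keratin-associated gene, and Slc39a14, a zinc transporter, completed the 10 strongest members called in neither. A member needed only its edge within 1 kb of a gene boundary. Over all members, the asynchronous summit was a median of 371 bp from a boundary, and within 1 kb at 84.5%. Among the 10 strongest members, those at Il6st, Gm10461, Cidea, Elp6, Rundc3b and Lrrn2 had summits 1068 to 1940 bp away. Those at Aspm, Sgip1, Ebi3 and Armcx1 had summits 136 to 901 bp away.

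By outer gene boundaries, the 34 members that both mitotic libraries called were 27 at starts only, 2 at finishes only, 2 at both and 3 with no strand given. After Rundc3b came Shf, which encodes an SH2-domain adaptor, with mitotic folds of 6.65 and 6.38 and asynchronous folds of 17.5 and 32.9. Vangl2 followed with mitotic folds of 3.19 and 7.01, the second of which was the highest of any member in replicate 2, and asynchronous folds of 20.1 and 21.2. The region at Helb, a DNA helicase gene, had mitotic folds of 5.88 and 4.84. The asynchronous summits at Shf and Helb lay 1214 and 1567 bp from the gene boundary. The region at Trim28 (chr7:13022590-13024244), which encodes the corepressor that KRAB zinc finger proteins recruit to retroelements, had mitotic folds of 5.73 and 6.88 and asynchronous folds of 21.0 and 17.7. It also reached the finish of Gm31649, and its summit was 843 bp from the Trim28 start. Those at Laptm4a, a lysosomal membrane gene, at Gm46977 and Etv6, an ETS family repressor, at Ccdc159 and Plppr2, at Mmp11 and Chchd10, and at Gm46933 had mitotic folds of 4.03 to 6.84 in replicate 1 and of 4.40 to 6.19 in replicate 2. The last of these, counted at the finish of Gm46933, also held an internal start of G3bp2, a stress granule gene.

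The highest mitotic folds of all members in replicate 1 were at Rbbp4, Hmgn1, Atp1b2, Trp53inp2 and Zfand3. Rbbp4, a histone-binding subunit of several chromatin complexes, shares its region with Zbtb8os and had a mitotic fold of 9.497 in replicate 1 and 4.56 in replicate 2. Hmgn1, a nucleosome-binding protein, had 7.89 and 3.84, and Atp1b2, a subunit of the sodium pump, had 7.73 and 6.77. Trp53inp2, an autophagy gene, and Zfand3, a zinc finger gene, had 7.68 and 7.20 in replicate 1 and were not called in replicate 2. In the asynchronous lists these 5 regions had strengths of 86.7 to 89.5, above the members' upper quartile of 69.9.

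Whether a region lay at the start or the finish of a gene was read from the strand, which the RefSeq promoter table gives for 17492 of the 21887 genes. Members at gene starts were called more often than members at gene finishes. In replicate 1, 188 of 2854 members at starts only were called, 6.59% (5.73% to 7.56%), against 9 of 710 at finishes only, 1.27% (0.668% to 2.39%). In replicate 2 it was 30 at starts, 1.05% (0.737% to 1.497%), against 2 at finishes, 0.282% (0.0773% to 1.02%). The difference was 5.32 and 0.769 percentage points (mean 3.04 ± 3.22, SD, n = 2), with no test over regions. Starts were the weaker group in asynchronous cells, with a median strength of 44.9 against 57.1 at finishes. They were also the wider group, with a median width of 718.5 bp against 596.5 bp. The part of width in the difference was not tested. Of the 710 members at finishes, 20 had a RefSeq start of transcription within 1 kb that was no outer boundary. Without these 20, an alternative chosen after the data were seen, 7 of 690 members at finishes were called in replicate 1, 1.01% (0.492% to 2.08%), and 1 in replicate 2, 0.145% (0.0256% to 0.816%). Above a strength of 80, 20.5% of 361 members at starts were called in replicate 1, against 3.55% of 169 at finishes. Members at finishes were called at 1.27% and 0.282%, against 0.662% and 0.195% of regions inside genes without CTCF. The 173 members that touched both a start and a finish had 13 calls in replicate 1 (7.51%) and 2 in replicate 2. For 924 members no strand was given, and 46 of them (4.98%) were called in replicate 1.

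Among the groups by kind of gene end, members over more than 1 gene start had the highest share. Of 292 members within 1 kb of 2 or more starts, 31 were called in replicate 1, 10.6% (7.58% to 14.7%), and 7 in both libraries, 2.40%. Of 2735 members at 1 start, 170 were called in replicate 1, 6.22% (5.37% to 7.18%), and 22 in both, 0.804%. In 279 of the 292, starts faced opposite strands, and 30 of those were called in replicate 1. Examples called in both were Rbbp4 with Zbtb8os, and Mmp11 with Chchd10, a mitochondrial protein gene.

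Calls were also fewer farther from the boundary. Members that overlapped a gene boundary, 2311 in number, were called at 8.83% in replicate 1 (7.74% to 10.1%) and 1.34% in replicate 2. Members whose edge was up to 500 bp away were called at 2.43% and 0.221%, and those at 500 to 1000 bp at 1.92% and 0.504%. Beyond the limit of 1 kb, regions without CTCF at 1000 to 1500 bp were called at 2.02% and 0.379%, so the limit itself marked no step. At 5000 to 10000 bp the shares were 0.626% and 0.0501%. Median strength was 50.9 for members that overlapped a boundary, 41.9 at up to 500 bp, 50.5 at 500 to 1000 bp and 61.8 at 5000 to 10000 bp. The 3 members nearest to the limit, at Cds1, Grp and Gabra5, had edges at 999 to 1000 bp and strengths of 27.4, 62.6 and 23.4. The 3 regions just outside, at 1700093K21Rik, Pgp and Tardbp, had edges at 1001 to 1002 bp and strengths of 83.2, 82.9 and 84.3. None of these 6 was called in mitosis.

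**Figure D4:**
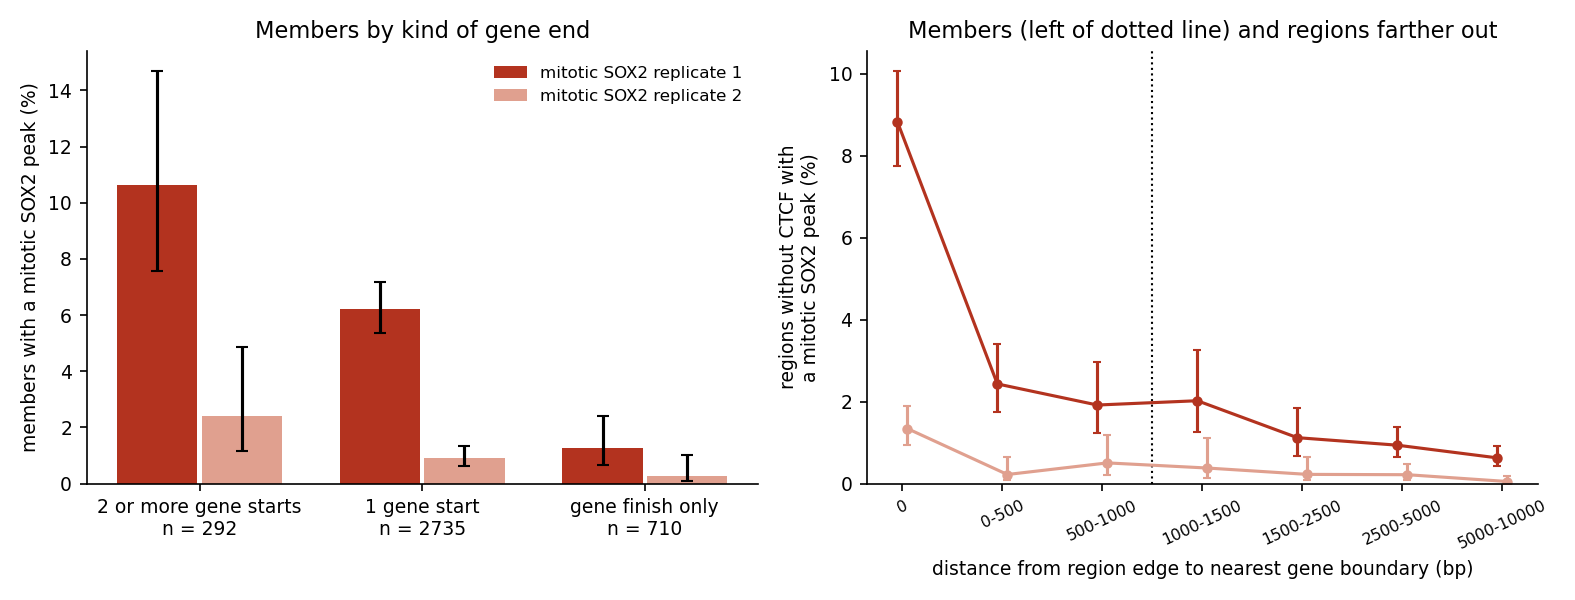
Left, share of members with a mitotic SOX2 peak (y axis, %) for members at 2 or more gene starts, at 1 gene start and at gene finishes only. Right, the same share for regions without CTCF by the distance of their edge from the nearest gene boundary (x axis, bp), with members left of the dotted line; bars are 95% Wilson intervals, and the share in replicate 1 is 8.83% at boundaries and 0.626% at 5000 to 10000 bp.

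Members at gene starts that were called in mitosis had GC-rich promoters. A RefSeq window overlapped 2055 members, and these 2468 windows of 2221 genes had quartiles of GC content of 54.3% and 66.3%, against 48.3% and 64.7% for all 21263 windows and 45.3% and 61.7% for 14695 windows without a reproducible SOX2 region. The 223 windows at members called in mitotic replicate 1 had a median of 64.3% (quartiles 58.3% and 69.7%) and 26 CpG dinucleotides, against 59.7% (54.0% and 65.7%) and 19 CpG for 2242 windows at members called in neither. The 41 windows at members called in both had 62.3% and 21 CpG. The 3206 windows at SOX2 regions with CTCF had a median of 64.3% and 25 CpG. Windows share members, so they are not independent. In replicate 1, 9 of 250 windows of 40% to 50% GC were at a called member (3.60%), 6.30% of 969 windows of 50% to 60%, 10.3% of 929 windows of 60% to 70%, and 54 of 293 windows above 70% (18.4%, 14.4% to 23.3%). In replicate 2 it was 1.86% of windows of 50% to 60%, 1.83% of those of 60% to 70% and 2.73% of those above 70%, and 0 of the 250 windows of 40% to 50%, with a Wilson upper bound of 1.51%. Of 27 windows of at most 40% GC, 3 were at a called member in replicate 1 (11.1%, 3.85% to 28.1%) and 1 in replicate 2 (3.70%). Median asynchronous strength was lower in the GC-richer classes, at 51.1, 46.7, 44.2 and 43.5 in the same order. Above a strength of 80, the median GC content was 63.7% for 104 windows called in replicate 1, against 57.0% for 210 called in neither. Above 40% GC, base composition moved with the calls of replicate 1. In replicate 2 the intervals of the classes above 50% GC overlapped. The part of base composition in the calls was not tested.

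**Figure D5:**
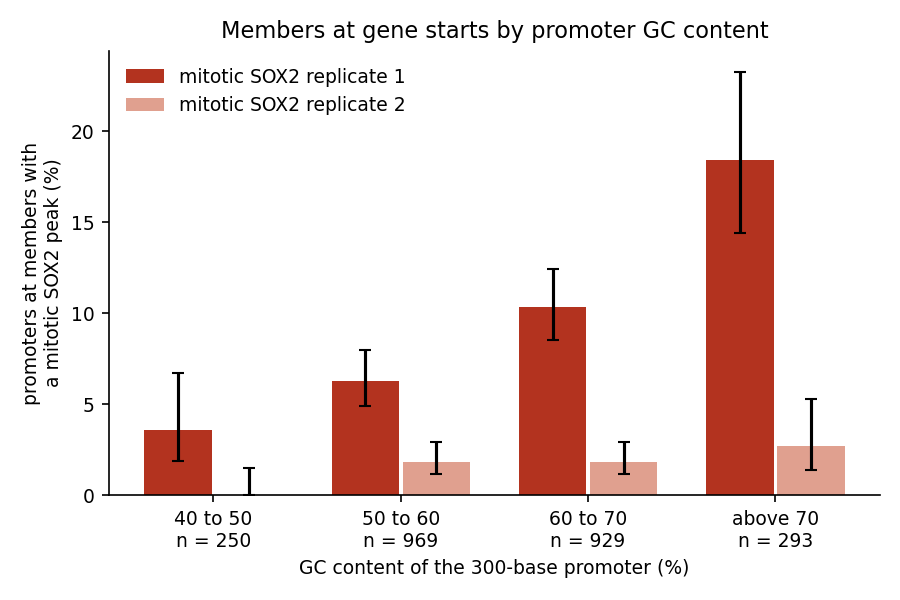
Share of promoter windows at members whose member had a mitotic SOX2 peak (y axis, %) by GC content of the 300-base window (x axis, %), for both mitotic libraries. Bars are shares with 95% Wilson intervals, and replicate 1 goes from 3.60% at 40 to 50% GC to 18.4% above 70%; 27 windows of at most 40% GC, 3 of them called in replicate 1, are not drawn.

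The letters in these windows were counted on both strands as a description. The GC box GGGCGG, the site of SP family factors, was in 79.8% of windows called in replicate 1 (74.1% to 84.6%), against 66.2% of those called in neither and 46.2% of all windows. It was in 30 of the 41 windows called in both (73.2%, 58.1% to 84.3%) and in 72.7% of windows at SOX2 regions with CTCF. Above a strength of 80 it was in 79.8% of windows called in replicate 1, against 58.6% of those called in neither. The E-box CACGTG was in 15.7% of windows called in replicate 1, against 10.1% of those called in neither and 7.84% of all windows, and in 3 of the 41 windows called in both (7.32%). The ETS core CCGGAAG was in 13.9%, against 19.2% of those called in neither and 11.6% of all windows, and in 1 of the 41 windows called in both. The SOX core ACAATG was in 13.5% of windows called in replicate 1 (9.59% to 18.6%), against 9.63% of those called in neither and 11% of all windows. The variant ACAAAG was in 23.3%, against 16.5% of those called in neither and 16.8% of all windows. Of the 41 windows called in both, 8 held the SOX core (19.5%, 10.2% to 34.0%) and 10 the variant (24.4%, 13.8% to 39.3%). Above a strength of 80, however, the SOX core was in 16.3% of windows called in replicate 1 and in 17.1% of those called in neither. The variant was in 27.9% and 25.2% of the same windows. The octamer ATGCAAAT was in 2.69%, against 2.45% of those called in neither and 1.66% of all windows.

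CTCF, absent from members in asynchronous cells by the rule, was also looked for in mitosis. Mitotic CTCF replicate 1 had a peak on 46 members, 0.987% (0.741% to 1.31%), where 0.184% of all 37578 SOX2 regions without asynchronous CTCF had one. Replicate 2 had a peak on 9 members, 0.193% (0.102% to 0.367%), where the share of all was 0.0373%. The mean was 0.590% ± 0.561 (SD, n = 2). The other 32917 SOX2 regions without CTCF had 23 such peaks (0.0699%) in replicate 1 and 5 (0.0152%) in replicate 2. A peak of mitotic CTCF replicate 1 lay on 8 of the 256 members called in mitotic SOX2 replicate 1, 3.13% (1.59% to 6.04%), against 38 of the 4405 not called there, 0.863% (0.629% to 1.18%). Of the 34 members called in both mitotic SOX2 libraries, 0 had a mitotic CTCF peak, which allows a share of up to 8.82% at 3 counts of 34, with a 95% Wilson upper bound of 10.2%. Both mitotic CTCF libraries had a peak on 4 members, at Rab11a, Cluh, Eif4b and Hoxa4, of which Rab11a and Cluh were called in mitotic SOX2 replicate 1. These 4 were named after their values were seen.

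The genes with members were compared with 12 lists of genes of stem cell biology, chromatin and housekeeping functions, 389 genes in all, chosen with earlier results of these data known. A member lay at 154 of them, and 15 of these (9.74%) had a member called in mitotic replicate 1, where 6.44% of all 4671 genes with a member did. In both libraries it was 2 genes, Trim28 and Tra2b, where 0.921% of all genes with a member were called in both. Tra2b, a splicing factor, had mitotic folds of 3.50 and 3.84 (chr16:22264712-22267345). Without mitotic SOX2 replicate 1 it was 3 genes, the third being Smarcb1, a remodelling subunit called in replicate 2 only.

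Of 40 pluripotency genes, 20 had a member, and their median strength was 72.1, against 50.3 over all genes with a member. Trim28 and Fbxo15 were called in mitotic replicate 1, 2 of the 20 genes (10%), where 6.44% of all genes with a member were. Fbxo15, an F-box gene known as a target of SOX2 and OCT4, had asynchronous folds of 31.3 and 21.4 and a mitotic fold of 4.91 in replicate 1. The other 18 genes of the list with a member had no mitotic peak on it in either library. The strongest region at Dppa3, also called Stella, had asynchronous folds of 27.9 and 21.9, with its summit 1721 bp from the boundary. Nanog had folds of 18.4 and 22.6 at its start (chr6:122706907-122707877), 73 bp from the boundary. Dppa5a had 20.4 and 19.8. Fgf4, whose downstream enhancer is a classical target of SOX2 and OCT4, had 18.2 and 16.4 at its finish (chr7:144863648-144865468). Zfp42, also called Rex1, had 11.5 and 10.1 at its start and 4.79 and 4.77 at its finish. Prdm14, a zinc finger regulator of the naive state, had folds of 9.67 and 8.22, and Stat3, which relays LIF signals, had 6.31 and 6.33. The start of Sox2 itself had folds of 5.45 and 5.53, and the strongest regions at Klf2, Nr0b1, Tcl1 and Tdh had folds of 3.16 to 6.34.

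In the other lists the share of genes with a called member in replicate 1 ran from 0% to 33.3%, over 6 to 19 genes each, where 6.44% of all genes with a member were called. Chromatin remodelling and histone acetylation had 15 genes with a member, of which Smarca4, Smarce1 and Kat2a were called in replicate 1 (3 genes). Smarca4, the BRG1 ATPase, had a mitotic fold of 5.02 and asynchronous folds of 9.55 and 6.40. Of 13 Polycomb and trithorax genes with a member, Ezh2, the H3K27 methyltransferase, and its partner Mtf2 were called in replicate 1, with mitotic folds of 4.47 and 3.59. Mtf2 had the stronger asynchronous region, with folds of 22.2 and 30.5. Among 10 splicing genes with a member, Srsf10, Tra2b and Hnrnpa1 were called in replicate 1, and Tdg, a DNA glycosylase, with Trim28 among 6 DNA methylation genes. Hes5 and Meis1 were called among 11 neural regulators, Rb1 among 16 genes of mitosis and the cell cycle, and Rpl23 among 19 ribosomal protein genes. The called members at Hnrnpa1, Rb1 and Rpl23 also had a peak of mitotic CTCF replicate 1. In replicate 1, no member was called at the 18 genes of LIF, FGF, WNT, BMP and Nodal signalling, the 7 of DNA replication and repair, the 10 of mesoderm and endoderm or the 11 of the immediate early and stress response. At these list sizes, 1 gene moves a share by over 5 percentage points.

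Over the 20 chromosomes with members, the share of members called in replicate 1 ran from 1.38% on chromosome 19 (2 of 145) and 1.55% on chromosome X (2 of 129, 0.426% to 5.48%) to 9.84% on chromosome 18 (12 of 122) and 10.3% on chromosome 8 (22 of 213, 6.92% to 15.1%). These 4 are the lowest and highest pairs, picked after their values were seen. Over all SOX2 regions the share was 2.98%, 0.702%, 3.44% and 4.50% on the same chromosomes in that order.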

How the data were processed

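Each deposited narrowPeak list belongs to 1 library, so replicates were not pooled by the authors. The build was mm10, and the tools were MACS2 2.1.1.20160309, BWA 0.7.17, CASAVA 1.4 and SAMtools, per the submitters' processing notes. Roles and options of the tools and the control library: not given in the sources used here. Every list holds, from the authors, a fold enrichment (a ratio to local background), a −log10 p-value and a −log10 q-value at each summit. The deposited score was not used.

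Peaks were merged and overlapped (at least 1 bp) in Python 3.11.15 with pandas 2.3.3 and numpy 2.4.6. The overlap code was tested on simulated intervals against bedtools. Background coverage was solved from the deposited fold and −log10 p under a Poisson model, and all solved peaks gave whole reads within a tolerance of 0.002 in −log10 p. Bracketed ranges after a share are Wilson intervals at 95%, computed for shares of member and comparison regions but not for reweighted shares. Conditions were compared by calls only, since the lists were called separately. Shares were computed per mitotic library, and differences were tested by an exact sign-flip permutation over 2 libraries. No test was run over regions.

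Gene boundaries came from RefSeq (GRCm38.p6, the assembly behind mm10), with 21887 protein-coding genes. All list genes matched. The members, gene lists, motifs and tests were chosen with earlier results of these data known. Named were the 10 strongest members, the 10 strongest that both mitotic libraries called and the 10 strongest that neither called, the 5 highest mitotic folds per library, list genes called in both, up to 15 pluripotency genes, and the 3 regions on either side of the 1 kb limit. The values of 1 pluripotency gene under this rule are not reported here. List genes called in 1 library, Hoxb1, Fam169a and Bcat1 were named after their values were seen. Alternatives covered thresholds, overlap, window, the CTCF rule, list length, strength, and each library in turn.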

Additional observations from a re-analysis of the deposited data

How the results depend on the processing

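Of 126 recomputed values, only the differences could change sign, and none of them did. Of the 126, 118 stayed within 1 SD between libraries (shares and strength), within 1.5 times (counts) or on the same side of 0 (differences). Since that SD is as large as the mean share, the first criterion is loose. The mean called share itself ran from 0.837% to 13.8%. Members exceeded regions inside genes without CTCF under all 20 alternatives (0.642 to 11.1 percentage points), exceeded all other regions under all 20 (0.0901 to 7.06) and stayed below gene ends with CTCF under all 20 (−23.9 to −2.14). Among the strongest 10% of regions, the mean called share of members was 13.8%, and 12 of 174 were called in both libraries. With only CTCF regions of both lists excluded, 74 members were called in both and the mean share with a mitotic CTCF peak was 1.2%. With mitotic lists of equal length, 18 members were called in both and the mean called share was 0.912%. The differences were then 0.160 (others), 0.743 (inside genes) and −2.38 (gene ends with CTCF) percentage points. Leaving out each SOX2 or asynchronous CTCF library in turn gave 34 to 256 members called in all mitotic SOX2 libraries left. Leaving out each mitotic SOX2 library gave 3 and 15 list genes called in place of 2. The labels do not say that replicate numbers pair samples, and 2 pairs cannot show it. With the replicate block, each mitotic library scored on regions of the asynchronous library of its number, the mean called share was 1.83%, and the differences were 0.595 (others), 1.55 (inside genes) and −4.65 (gene ends with CTCF) percentage points. A count of members called in both cannot be made under the block. Without finish members near an internal start, chosen after the data were seen, the start minus finish difference was 3.24. Mitotic SOX2 replicate 2 had the lower background coverage (1.64 against 2.62 per 100 bp) and the shorter list, and the part of depth in this was not tested. An absent peak does not show absent binding.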
